A study of Homo sapiens with 14 samples.

Results

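Eukaryotic translation initiation factors were examined as the protein-coding genes of GENCODE release 29 (GRCh38) whose name starts with EIF, which gave 56 genes of 19940. The measurement was the list of RNA sites called as changed in each library, with the reads covering a site and the percentage of them carrying the change, its level. All called sites on the strand of an EIF gene were kept, and they numbered 473 calls at 171 distinct sites, of 46372 calls at 22358 sites in all. At least 1 site was called on 29 of the 56 genes.

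The cells were 293FT, a human embryonic kidney line, and total RNA was sequenced in 14 libraries. Cells of 3 libraries were transfected with hA3A-BE3, a cytosine base editor that joins the human deaminase APOBEC3A to a Cas9 nickase. Cells of 2 libraries, numbered 2 and 3 by the labels, were transfected with PE3, a prime editor in which a reverse transcriptase is fused to nicking Cas9 and an additional guide nicks the other strand. Controls were 3 libraries each of cells with Cas9, with EGFP and without transfection. All titles carry the name hRNF2, and no guide sequence is given. The labels state a sort at 40 h after transfection that kept the cells in the top 15% of fluorescence. The top 15% is given for the cells without transfection too, to which a time after transfection does not apply. The labels do not say whether replicates were separate cultures. The p-values below therefore rest on library-to-library spread, which could be technical only.

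Initiation factors bring the initiator tRNA, the messenger RNA and the ribosomal subunits together at the start codon. EIF2 carries the initiator tRNA, and EIF2B is the exchange factor that recharges EIF2 with GTP. The EIF2 kinases, among them EIF2AK2, known as PKR, phosphorylate EIF2 under stress and so limit EIF2B. EIF3 is the large scaffold on the small ribosomal subunit. The EIF4 group binds the cap, unwinds the leader and recruits the small subunit, and the 4E-binding proteins, such as EIF4EBP1, hold the cap-binding protein in check. The files hold called sites and not expression, so they say nothing of the amount of any factor.

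C-to-U sites on EIF genes were called in the hA3A-BE3 libraries at 52 positions in 23 genes. Of these, 11 sites in 8 genes were recurrent, meaning that each of the 3 hA3A-BE3 libraries listed them while the other groups did not. The sequences of 10 recurrent sites are shown because they carry the finding and show the bases around the edited cytosine. Each is 29 bases of the spliced GENCODE transcript, 5′ to 3′, and the capitals mark the edited C and the 3 bases before it.
EIF2B1 I301I: agcgaugagcuCAUCaagcucuaucugua
EIF2B1 I119I: ugccauacuuuCAUCaaagauggagcgac
EIF3B L810L: gaaaucauuccCCUCgggaaucaggagug
EIF3B Q354X: uggcuaccuuuCAUCaaagaggcauugcu
EIF3I I108I: gggggcaacauCAUCauguucuccacgga
EIF3K F188F: ucggggcagauCUUCaucuguagccaaga
EIF3L Q89X: aacagcaaaccUAUCaggugaucccugag
EIF3L 3′ UTR: ccuagaucagcCAUCagccugucaacuca
EIF4G2 I414I: caugggggacaCAUCaugccucccacaca
EIF6 I53I: gugcacgcgucUAUCgccggcugccgcau

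The edited C followed a U at all 11 recurrent EIF sites, and it was the last base of AUC at 9 and of CAUC at 7 of them. Over the 51 exonic EIF sites of hA3A-BE3, U was the base before the edited C at 51 (100%), against 95.3% of 10186 exonic hA3A-BE3 sites over all genes. AUC ended at the edited C at 60.8% of EIF sites, against 50.6% over all genes, and CAUC at 39.2% against 28.3%. The search was on the transcript strand only, and CAUC is contained in the AUC count. In the 23 edited EIF transcripts, 50 of 4451 cytosines after U were called (1.12%), 20 of 344 in CAUC (5.81%) and 0 of 12650 cytosines not after U. A single transcript per gene was searched, and 1 of the 51 sites was not in it. These shares are descriptions and were not tested.

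The folds of the sites were computed as well. In the minimum free energy fold of the site with 20 bases on each side, the edited C lay in a hairpin loop at 35 of 51 EIF sites (68.6%), close to 67.6% over all genes. Uncalled cytosines after U in the same transcripts lay in such a loop in 36.6% of cases. Among the recurrent EIF sites 9 of 11 were in a hairpin loop, and 5 of 11 in a loop of 3 or 4 bases, which held 40.4% of all recurrent sites. The 2 recurrent stop sites, EIF3B Q354X and EIF3L Q89X, were the 2 that were paired in the computed fold.

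The EIF genes carried 14, 27 and 38 C-to-U sites in hA3A-BE3 replicates 1, 2 and 3 (26.3 ± 12, SD, n = 3). All 9 control libraries had 0, and PE3 replicates 2 and 3 had 1 and 0. The 3 hA3A-BE3 libraries lay above every other library. EIF sites made up 0.560%, 0.528% and 0.590% of all C-to-U calls in those 3 libraries, a narrow range beside the 2499 to 6446 C-to-U calls of these libraries. A site missing from a list was unedited, uncovered or under the lists' limits of about 5% of reads and 2 mutated reads, so absence is not a level of 0.

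**Figure D1:**
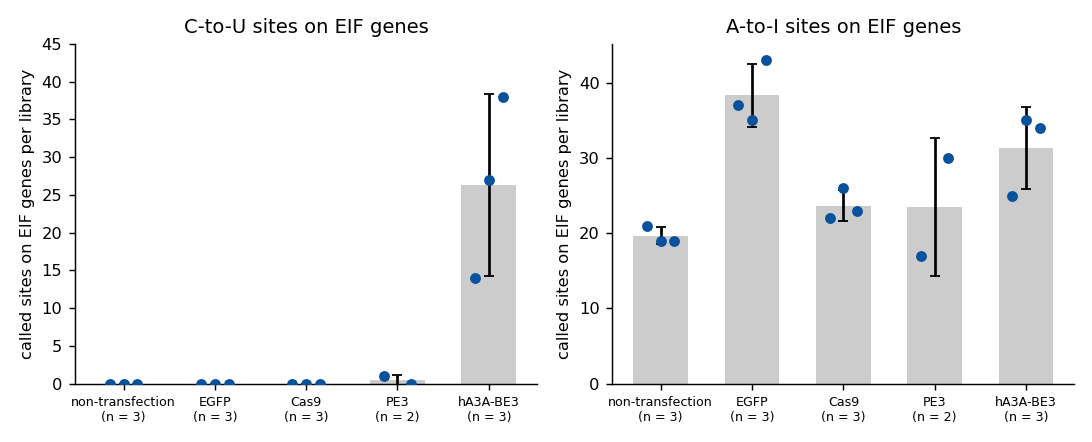
Called C-to-U sites (left) and A-to-I sites (right) on EIF genes per library, by group. Points are libraries, bars are group means and error bars are SD. C-to-U sites were at 14, 27 and 38 in hA3A-BE3 and at 0 or 1 elsewhere, while A-to-I sites were present in all 14 libraries.

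The number of C-to-U sites per gene was compared between 3 hA3A-BE3 and 9 control libraries on the scale log2(sites + 1). Every gene with a called site was tested, protein-coding or not, while the EIF genes are all protein-coding. EIF2B1, EIF3B, EIF3I, EIF3K, EIF3L, EIF4EBP1, EIF4G2, EIF4G3 and EIF6 rose, 9 of 29 EIF genes tested (31.0%, against 21.6% of 5609 genes). A gene entered the test only with a called site. For 7 of the 9, all but EIF3I and EIF4G3, every site was in an hA3A-BE3 library, so they entered only through the group where they were high, and the count of called genes supports nothing further. In a two-sided exact permutation test each had p = 0.00909, the smallest that 3 against 9 libraries can give, and a Benjamini-Hochberg adjusted p of 0.0422. The difference was 1.86 for EIF3B, 1.72 for EIF2B1 and EIF3L, 1.53 for EIF4EBP1, 1.33 for EIF4G3, 1.19 for EIF4G2, and 1.00 for EIF3I, EIF3K and EIF6. The median difference was 0.53 both in the 29 EIF genes and in all genes tested. Every call was lost when any 1 of the 12 libraries was left out. The smallest adjusted permutation p-values were then 0.0556 to 0.0560 without a control and 0.0915 to 0.130 without an hA3A-BE3 library. No call remained with levels of at least 10% only.

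Recurrent sites were on 8 of the 29 EIF genes (27.6%), against 15.7% of the 5609 genes. EIF4G3, a scaffold of cap-dependent initiation, was the called gene without one, since none of its 4 sites was listed in all 3 libraries. A C-to-U site in at least 1 hA3A-BE3 library was called on 23 of 29 EIF genes (79.3%), against 83.3% of all genes with a called site. Recurrence differed more than presence, but neither was tested. A C-to-U site in hA3A-BE3 by itself brings a gene among those counted, so these shares support nothing further. EIF sites were more deeply covered, with medians of 190, 133 and 101.5 covering reads in the 3 libraries against 48, 45 and 53 over all C-to-U calls. The part of coverage in these shares was not tested.

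EIF2B1 is the alpha subunit of EIF2B and held the EIF site with the highest mean level. Its isoleucine codon 301, near the end of the coding sequence at chr12:123621771 on the minus strand, was changed from AUC to AUU, which leaves the amino acid as it is. The level at EIF2B1 I301I was 16.9% of 77 reads, 23.1% of 52 and 46.1% of 76 in replicates 1, 2 and 3 (28.7% ± 15.4, SD, n = 3). The Wilson 95% intervals of replicates 1 (10.1% to 26.8%) and 3 (35.3% to 57.2%) did not overlap. Such intervals cover counting error only. The other recurrent site, EIF2B1 I119I at chr12:123630181, was at 5.83% to 7.98% with 120 to 188 reads, lower than EIF2B1 I301I in each library. EIF2B1 I186I was called in 1 library.

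EIF3B, a core scaffold subunit of EIF3, carried 4 C-to-U sites. The highest was the synonymous EIF3B L810L, 99.5% along the coding sequence at chr7:2379482 on the plus strand, at 13.2% of 136 reads, 13.1% of 107 and 21.8% of 179 (16.04% ± 4.98, SD, n = 3). EIF3B Q354X, at chr7:2364432, turned a CAA glutamine codon into the stop codon UAA, 43.4% along the coding sequence. Its levels were 6.07% of 560 reads, 11.4% of 376 and 10.1% of 574 (9.20% ± 2.79, SD, n = 3). The intervals of replicate 1 (4.38% to 8.36%) and replicate 2 (8.60% to 15.1%) did not overlap.

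EIF3L, a peripheral EIF3 subunit, carried the other recurrent stop. EIF3L Q89X, at chr22:37851333 on the plus strand and 14.6% along the coding sequence, was at 5.41% of 333 reads, 8.18% of 318 and 11.1% of 396 (8.23% ± 2.85, SD, n = 3). The level was lowest in replicate 1 and highest in replicate 3. A site in its 3′ UTR at chr22:37888555 was higher, at 11.5% of 192 reads, 18.3% of 191 and 14.2% of 211 (14.7% ± 3.5, SD, n = 3). That site also lies in AL022311.1 on the same strand, and the reads of the overlapping genes cannot be told apart.

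EIF3I and EIF3K each had a single C-to-U site, and it was recurrent. EIF3I I108I, at chr1:32226244 on the plus strand, was at 11.6% of 259 reads, 18.9% of 185 and 19.5% of 293 (16.7% ± 4.4, SD, n = 3), the second highest mean of the recurrent EIF sites. EIF3K F188F, at chr19:38635057 on the plus strand, was at 7.20% of 500 reads, 10.7% of 374 and 12.1% of 586 (10.0% ± 2.5, SD, n = 3). Both are synonymous, and both lay in a computed hairpin loop of 4 bases.

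Members of the EIF4 group and EIF6 completed the recurrent sites. EIF4G2, known as DAP5, is a scaffold paralog without the part that binds the cap-binding protein. EIF4G2 I414I, at chr11:10802106 on the minus strand, was at 6.33% of 237 reads, 10.1% of 189 and 13.5% of 267 (9.96% ± 3.58, SD, n = 3). EIF6, which keeps the large ribosomal subunit from joining too early, had EIF6 I53I at chr20:35284210 on the minus strand. Its levels were 5.32% of 188 reads, 8.94% of 123 and 14.2% of 148 (9.48% ± 4.46, SD, n = 3). The 3′ UTR site of EIF4EBP1, at position 38059948 of chromosome 8, was at 6.70% of 209 reads, 10.5% of 143 and 12.2% of 197 (9.79% ± 2.81, SD, n = 3). In all 3 genes replicate 1 was lowest and replicate 3 highest.

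The 11 recurrent EIF sites had mean levels with a median of 9.96%, against 13.9% for all 1057 recurrent sites. Only EIF2B1 I301I had a mean level of 20% or more, 1 of 11 sites, against 27.4% of all recurrent sites. Coverage differed too, with a median of 192 reads at the recurrent EIF sites and 64 over all, and its part in the levels was not tested. The next medians are over all C-to-U calls with at least 100 covering reads, recurrent or not. The EIF medians of 6.76%, 9.36% and 8.19% in the 3 libraries lay on both sides of the medians over all genes, 7.63%, 7.69% and 7.60%. Replicate 1 was lowest at 9 of 11 EIF sites, against 65.3% of all recurrent sites, and replicate 3 highest at 9 of 11, against 43.3%.

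The remaining 41 sites were called in fewer libraries, 36 in 1 (69.2% of 52, against 74.6% over all genes) and 5 in 2 (9.62% against 15.1%). The missense site EIF4G3 P269S, at chr1:20942199, was at 5.56% of 90 reads in replicate 1 and 5.84% of 137 in replicate 3. The synonymous EIF4EBP1 F43F was at 14.1% of 135 reads in replicate 2 and 5.02% of 259 in replicate 3. EIF5 activates the GTPase of EIF2, and its 3′ UTR site at position 103343095 was at 9.77% of 133 reads and 8.19% of 171 in those libraries. Its 5′ UTR site at position 103334532 was at 6.98% of 43 reads and 6.41% of 78. EIF1, which guards start codon selection, had a 3′ UTR site at position 41691441 with 6.75% of 326 reads and 5.25% of 457. Apart from EIF4EBP1 F43F, these sites lay under 10% in each library that listed them.

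**Figure D2:**
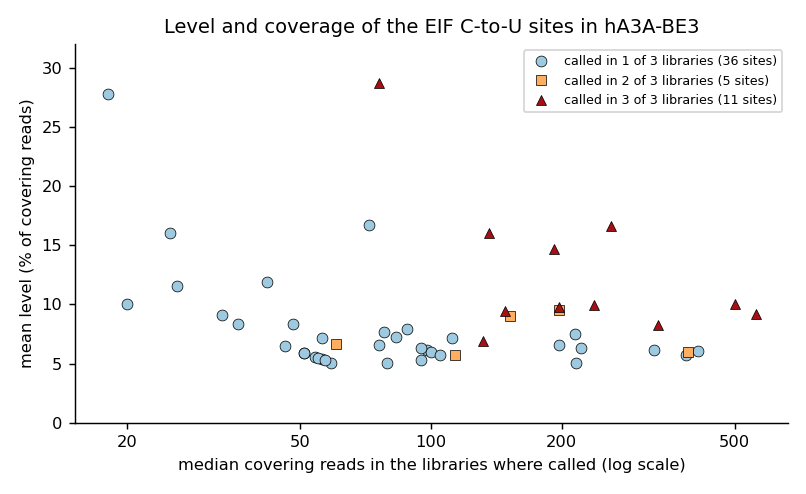
Mean level of the 52 EIF C-to-U sites of hA3A-BE3 against the median covering reads in the libraries where each was called, on a log scale. Marker shape gives the number of hA3A-BE3 libraries. The 11 sites called in all 3 libraries had a median of 192 covering reads and the 36 sites called in 1 library a median of 74.

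By region, 36 of the 52 sites were coding (69.2%, against 69.9% of 10353 hA3A-BE3 sites over all genes), 14 lay in a 3′ UTR, 1 in a 5′ UTR and 1 in an intron. Of the coding sites 23 were synonymous (63.9%, against 49.7%), 10 missense (27.8%, against 35.5%) and 3 made a stop codon (8.33%, against 14.8%). The third base of an AUC isoleucine codon was the edited C at 17 of 36 (47.2%, against 29.2%). The third stop, singled out after its value was seen, was EIF4G2 Q325X at 5.68% of 387 reads in 1 library. The differences from all genes were not tested.

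The complexes differed in how sites were spread. EIF3 had 6, 8 and 8 C-to-U sites in replicates 1, 2 and 3, and 6 of its 10 distinct sites were recurrent. The EIF2 group, which holds the subunits, the kinases and also EIF2A and EIF2D, had 1, 2 and 9, and none of its 12 sites was recurrent. The 12 were on EIF2AK2, EIF2AK3, EIF2AK4 and EIF2S1, with 1 of them on EIF2S1, the subunit that the kinases phosphorylate. The median coverage of the calls was 276 reads in EIF3 and 51 in EIF2, and its part in the difference was not tested. EIF2B had 2, 4 and 3 sites, of 5 distinct sites 2 recurrent, the EIF4 group 4, 8 and 10, of 16 distinct sites 2 recurrent, and the EIF1, EIF5 and EIF6 families 1, 5 and 8, of 9 distinct sites 1 recurrent.

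**Figure D3:**
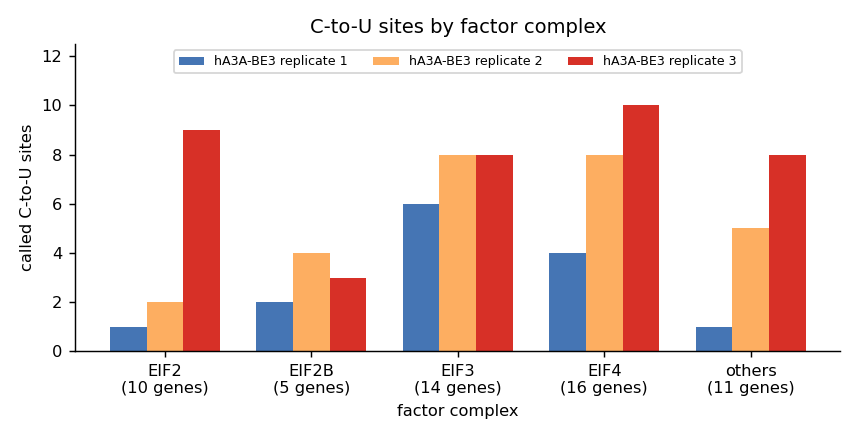
Called C-to-U sites in each hA3A-BE3 library, by factor complex, with the number of genes in each. EIF3 had 6 to 8 sites in every library, whereas the EIF2 group, with the kinases and also EIF2A and EIF2D, had 1, 2 and 9.

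No site of any change was called on 27 of the 56 genes. These were EIF1AD, EIF1AY, EIF1B, EIF2A, EIF2AK1, EIF2B4, EIF2S2, EIF2S3B, EIF3C, EIF3CL, EIF3E, EIF3F, EIF3H, EIF3J, EIF3M, EIF4A2, EIF4B, EIF4E, EIF4E1B, EIF4E3, EIF4EBP3, EIF4ENIF1, EIF4G1, EIF4H, EIF5A, EIF5A2 and EIF5AL1. They include EIF4E, the cap-binding protein, and EIF4G1, the main scaffold. EIF3C and EIF3CL are near-identical copies, as are EIF5A and EIF5AL1, and reads shared by copies can be lost or split in alignment.

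Other genes of translation were followed by a list of 42 that holds elongation and release factors and regulators such as MTOR. Of these 27 were tested and 10 rose by the same permutation test (37.0%, against 21.6% of all genes), namely DDX3X, DENR, EEF1A2, EEF1B2, EEF2, ETF1, GCN1, MCTS1, MTOR and RPTOR. Their median difference was 0.67 over the 27 genes, and the adjusted p was again 0.0422. Here too a gene entered the test only with a called site. EEF1B2, ETF1 and MCTS1 had 1 site each, listed with hA3A-BE3 only, so they entered only through the group where they were high. The other called genes had more than 1 site, and their C-to-U sites too were listed with hA3A-BE3 only. Whether each of them also entered through another change was not checked. The count of called genes in this list therefore supports nothing further. These calls too were lost without any 1 of the 12 libraries. GCN1 works with the kinase EIF2AK4, and DENR and MCTS1 act in reinitiation.

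PE3 was compared with the controls in the same way. In the exact permutation test 0 of 29 EIF genes were called for C-to-U (0% of all 5609 genes), and 0 had an unadjusted p under 0.05. The smallest p that 2 against 9 libraries can give is 0.0364, so a gene could pass the adjusted threshold only if most genes reached that p. The only C-to-U site was EIF2D Q549X in PE3 replicate 2, at 16.7% of 18 reads (Wilson 95% interval 5.84% to 39.2%). Its edited C followed a C, unlike the 51 exonic EIF sites of hA3A-BE3, as its transcript sequence shows. This site and the calls of other changes are given after their values were seen.
EIF2D Q549X: uucaggugcagAUCCagggaaaccagguc

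A-to-I changes, which the ADAR enzymes of the cells make and which are read as G, were the common change on EIF genes outside hA3A-BE3. There were 111 distinct sites in 8 genes. EIF genes had 25, 35 and 34 A-to-I sites with hA3A-BE3, 17 and 30 with PE3, 22, 26 and 23 with Cas9, 37, 35 and 43 with EGFP and 21, 19 and 19 without transfection. In number of sites the EGFP libraries lay above the other 6 controls, and the other groups overlapped the controls. As a share of all A-to-I calls of a library they did not, with 1.43%, 1.83% and 1.65% for EGFP, 1.53%, 2.04% and 0.786% for Cas9 and 0.932% to 0.941% without transfection. In the exact permutation test of sites per gene, 0 of 29 EIF genes were called for hA3A-BE3 or for PE3 (0% of 5609 genes). For these editors 0 EIF genes had an unadjusted p under 0.05, against 24 and 9 of all genes. The smallest p this permutation test can give is 0.00909 for hA3A-BE3 and 0.0364 for PE3. A gene at that p could pass the adjusted threshold only if many of the 5609 genes reached it. The 0 calls therefore do not show that site numbers were unchanged.

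EIF2AK2, the kinase PKR, which senses double-stranded RNA, held 50 of the 111 sites, all in its 3′ UTR on chromosome 2. It had 13, 18 and 21 sites with hA3A-BE3, 9 and 16 with PE3, and 15 to 22 in the controls. PE3 replicate 2 was lowest, and it was also the shallowest library at 3.26 Gb of mapped bases, against 5.44 to 10.6 in the others. Grouped with gaps of at most 500 bases, a limit chosen after the data were seen, 19 sites lay within 512 bases from 37100446 to 37100957. Of these 19, 9 were called in at least 10 libraries.

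Only 4 EIF sites were called in all 14 libraries, and all 4 are A-to-I sites of EIF2AK2. The site at 37100519 was highest, at 65.4% ± 10.5 (SD, n = 9) in controls, with 47.8% lowest, 63.6% median and 80.6% highest. It was at 73.0%, 74.5% and 60.9% with hA3A-BE3 and at 41.7% and 80.6% with PE3, so the groups overlapped. The sites at 37100559, 37100891 and 37100954 were at 17.7% ± 7.3, 34.1% ± 9.1 and 24.4% ± 6.4 in the controls (SD, n = 9). With hA3A-BE3 the means were 22.7% ± 3.8, 39.0% ± 9.7 and 28.9% ± 14.1 (SD, n = 3), and with PE3 26.1% ± 4.2, 43.1% ± 6.6 and 36.4% ± 12.9 (SD, n = 2). Levels at the 138 sites of any gene called in all libraries were tested with an exact permutation test, added after the data were seen. It called 0 sites for either editor (0%), with 3 sites for hA3A-BE3 and 11 for PE3 at an unadjusted p under 0.05. The smallest p this permutation test can give is 0.00909 for hA3A-BE3 and 0.0364 for PE3. A site at that p could be called only if many of the 138 sites reached it. The 0 calls therefore do not show that levels were unchanged. Adjusted permutation p-values at the 4 EIF2AK2 sites were 0.959 for hA3A-BE3 and 0.627 to 0.917 for PE3.

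The 10 A-to-I sites called in most libraries without hA3A-BE3 were these 4, 5 more of EIF2AK2 and 1 of EIF2S3. Those 5, at 37100523, 37100870, 37100932, 37104602 and 37104607, had control means of 9.65% to 22.1%. EIF2S3, the gamma subunit of EIF2, had its site in an intron at chrX:24075837. It was at 13.4% ± 6.4 (SD, n = 9) in controls and 16.3% ± 6.4 (SD, n = 3) with hA3A-BE3, and 1 PE3 library listed it at 5.88%. EIF2S3 held 15 A-to-I sites in all, 10 of them in introns and 5 in the 3′ UTR.

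EIF4G3 held 33 A-to-I sites, 32 of them in introns. EGFP replicates 1, 2 and 3 had 11, 2 and 13 of them, while the other 6 controls had 0 to 2, hA3A-BE3 had 1, 8 and 4, and both PE3 libraries had 3. The median coverage of these calls was 17 reads, and 21 of the 33 sites were called in 1 library. Coverage of these introns in libraries that do not list them is not given in the files, so its part in the counts was not tested.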

How the data were processed

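Total RNA of 293FT cells was read in 14 libraries as pairs of 150 bases, per the labels' protocols. BWA 0.7.17 and the build GRCh38 are named in the submitters' processing notes, and of the site caller nothing is given in the sources used here. For each library the authors deposited a list of sites that has no header. Deposited read counts per site, taken from the whole numbers, cover all reads, each base and the mutated reads. The level is the deposited fraction of edited reads, times 100. A deposited signal column of read depth per unit gave, by inference from the values, the mapped bases of each library, 3.26 to 10.6 Gb. Every listed site has at least 2 mutated reads, a level of at least 5.02% and at least 3.01 reads per Gb. The count of mutated reads and the deposited fraction differed at 56 calls, and intervals use the fraction.

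Strands were recovered from the base columns, and 17541 of 17541 exonic sites had the reference base of the GENCODE 29 transcript. Each site took its region and protein change from the basic annotation on its strand, and X is a stop. Sequences come from the GENCODE 29 transcripts of GRCh38. Folds were made with RNAfold 2.7.2. Sites per gene were compared with two-sided exact permutation tests (Python 3.11.15, numpy 2.4.6, pandas 2.3.3), Benjamini-Hochberg adjusted over 5609 genes and called at an adjusted p under 0.05, and the code was tested on simulated data. Depth limits what can be listed: at a coverage of 20 reads a level of 10% gives only 2 mutated reads. Tested genes are those of any type with a called site, so the other 27 EIF genes did not enter.

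The members, the list of 42 related genes, the complexes and the tests were chosen with earlier results of these data known. Named were genes with a recurrent site, protein-changing sites in at least 2 hA3A-BE3 libraries, other C-to-U sites in at least 2 of them, and the 10 sites listed in most libraries without hA3A-BE3. Alternatives were other limits on coverage, level, mutated reads and region, other scales, leaving out each library, and a replicate block. PE3 replicate 1 was not analysed here.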

Additional observations from a re-analysis of the deposited data

Results flagged for a closer look

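PE3 replicate 2 listed 4 calls on EIF genes that were neither C-to-U nor A-to-I, while no control library had more than 1. They were EIF2D Q547P (27.3% of 11 reads), EIF2B3 G147G (10.0% of 30), EIF3A E99K (5.74% of 122) and EIF3I E229D (10.7% of 75), each listed in that library only. EIF2D Q547P lies 5 bases from the C-to-U site EIF2D Q549X of the same library. Over all genes the library had 192 calls of such other changes, against 195 to 322 in the controls, and it was the shallowest of the 14 libraries.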

How the results depend on the processing

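The number of EIF genes called for C-to-U in hA3A-BE3 was 9 and fell to 0 with levels of at least 10% only, and to 0 with the replicate block, whose smallest possible p is 0.0313. Without 1 library in turn it ranged from 0 to 9, with 0 when any hA3A-BE3 or control library was left out and 9 without a PE3 library. Without 1 of the 12 libraries or with the block, the smallest p the exact test can give is larger, and the smallest adjusted permutation p exceeded 0.05 (0.144 with the block). With levels of at least 10% the smallest permutation p stayed at 0.00909, and the smallest adjusted p was 0.0671. Too few of the 4008 genes then tested reached that p for an adjusted p under 0.05. Levels of at least 10% also left 4 recurrent EIF sites on 4 genes, in place of 11 on 8, and a mean of 9.67 C-to-U sites in place of 26.3 in the hA3A-BE3 libraries. The mean of 27.6 A-to-I sites per library became 6.57 with at least 50 covering reads, 14.6 with at least 5 mutated reads, 8.14 without sites of non-transfected cells and 18.1 with exonic sites only, each of which leaves out sites by construction. The counts of EIF genes called for C-to-U in PE3 and for A-to-I in hA3A-BE3 stayed at 0 under all alternatives run, the replicate block included. In these comparisons no gene of any kind was called under any alternative, so the constant 0 does not speak for stability. A-to-I in PE3 was not recomputed. The labels do not say that a replicate number marks a shared culture, and deviations of same-numbered libraries correlated with a mean r of 0.02 over 26 pairs (-0.17 to 0.16), so the numbers were not taken as pairs. The mean level of EIF2B1 I301I ranged from 19.98% to 34.56% without 1 hA3A-BE3 library in turn, and the limits of 20 and 50 covering reads removed no call of a recurrent EIF site. EIF sites called in 1 hA3A-BE3 library had a median of 74 covering reads, and their median level of 6.43% was close to the lists' limit.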

Other observations

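EIF1AX, a factor of start codon selection, held 8 A-to-I sites, all in introns, with 4, 0 and 1 in the hA3A-BE3 libraries and 0 to 2 in the controls, at a median coverage of 17 reads. EIF2AK4 and EIF5 had C-to-U sites in hA3A-BE3 replicates 2 and 3 and none in replicate 1, with 1 and 5 sites on EIF2AK4 and 3 in each library on EIF5. EIF2AK2 had 4 C-to-U sites, all in its 3′ UTR and all in hA3A-BE3 replicate 3, at 5.56% to 10.0% with 20 to 56 covering reads. The same 3′ UTR held the 50 A-to-I sites.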
